A study of Mus musculus with 23 samples.

Results

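Of the 24475 genes listed, 8 genes of the B-lymphocyte lineage were chosen by name: Cd79a, Cd79b, Ms4a1, Pax5, Ebf1, Cd22, Blnk and Vpreb3. They were followed across 23 mouse libraries, each from 1 sample. Thymus came from normal C57BL/6 mice (n = 6) and served as control. The other libraries came from whole spleens of Rag2-/- Il2rg-/- mice on the BALB/c background in which T-cell acute lymphoblastic leukemia (T-ALL) had arisen after a newborn thymus lobe was placed under the kidney capsule. The donor lobe was wild type in WT T-ALL (n = 14; by the study's methods B6.Ly5.1 congenic, a C57BL/6 background) and lacked Notch3, through a β-galactosidase insertion in its first coding exon, in Notch3 KO T-ALL (n = 3). Both T-ALL groups share the host genotype and the transplantation. The spleens were not sorted, so they hold leukemic cells of donor origin together with host cells. Tissue (thymus or spleen), host strain, host genotype (Rag2-/- Il2rg-/- or normal) and transplantation part with thymus against T-ALL and cannot be told apart from it.

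A mature B cell carries a receptor made of an immunoglobulin and a signaling pair, Cd79a and Cd79b. The kinase Syk binds the phosphorylated pair, and the adaptor Blnk passes the signal on. Ms4a1 encodes the surface protein CD20, and Cd22 encodes an inhibitory coreceptor. Ebf1 and Pax5 are the transcription factors that specify and then hold the B-cell fate, and Vpreb3 encodes a small protein of precursor B cells that associates with immunoglobulin chains. The thymus normally holds a small number of B cells. Hosts without Rag2 cannot rearrange immunoglobulin genes, so their B-cell development stops at the precursor stage.

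Values are log2(scaled RPKM + 1), where RPKM corrects read numbers for library size and transcript length and was set by the authors to a 75th percentile of 10 in each library. All positions are on GRCm38. In RefSeq the genes lie at chr7:24897497-24901858 (Cd79a), chr11:106311341-106314562 (Cd79b), chr19:11249679-11266149 (Ms4a1), chr4:44524748-44710694 (Pax5), chr11:44618100-45008096 (Ebf1), chr7:30865404-30880342 (Cd22), chr19:40928927-40994221 (Blnk) and chr10:75943024-75949657 (Vpreb3). Ms4a1, Pax5, Ebf1 and Cd22 overlap annotated antisense genes, and Vpreb3 overlaps a processed pseudogene on the opposite strand. The libraries were stranded, but the sources used here do not say whether the quantification used strand, so reads of those overlaps cannot be assigned with certainty.

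RefSeq promoter windows were at hand for 6 of the 8 genes (7 windows, since Ebf1 has 2). They are shown where they hold a motif linked to B-cell transcription, and only the 250 bases before each start were searched, on both strands. The octamer ATGCAAAT (reverse complement ATTTGCAT), bound by Oct factors, was in 1.60% of 32851 windows and in those of Blnk and Vpreb3. The palindrome CCCNNGGG, the core of the Ebf1 site, was in 11.8% of windows and in that of Cd22. In the stretches that follow, written 5′ to 3′ on the gene's strand, capitals mark the match. The Blnk stretch (chr19:40994334-40994361, minus strand) overlaps an exon of Blnk in GENCODE, which starts the gene upstream of the RefSeq span given above. The stretches of Vpreb3 (chr10:75948245-75948272, plus strand) and Cd22 (chr7:30879059-30879086, minus strand) overlap no annotated exon. Both lie inside the RefSeq spans given above, so they precede starts within these genes and not the outermost ones. A match is a run of letters and no evidence of binding.
Blnk: actggaagggATTTGCATgcccaataag
Vpreb3: cagtgggctgATTTGCATgctctattgt
Cd22: cctgcaagatCCCTGGGGactcacacag

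Up to 40 reads, the values of 7 of the 8 genes came out within 0.2 of whole multiples of what 1 read was worth in a library, except Ebf1 in thymus 6 (12 reads, 0.457 of a read off), which let their read numbers be estimated. One read was worth from 0.617 to 2.90 times its worth in thymus 1, so depth differed by up to 4.70-fold between libraries. For Cd22 the step found would stand for a transcript of 15907 bases, against 3974 for its longest annotated one, so no reads were set. Intervals and limits drawn from these reads cover counting error only. Some libraries stood apart. Splitting the libraries on 5 other genes (Srsf4, Hnrnph3, Sco2, 1110002L01Rik and D330050I16Rik), a split chosen after seeing the data, put thymus 5 and 6, WT T-ALL 3, 4, 5 and 7 and all 3 Notch3 KO libraries in 1 set (A) and the other 14 in another (B). Thymus 5 and 6 were also the lowest thymus libraries for Cd79a and Ms4a1. The 10 T cell markers measured (of 12) had a summed scaled RPKM of at least 3072 in each thymus library, whereas WT T-ALL libraries spanned 1292 to 3013 and Notch3 KO ones 1879 to 1920, without overlap with thymus. Cd4, one of them, was 8.31 to 8.86 in thymus and 1.90 to 6.30 in WT T-ALL. Notch3 itself measured 2.59, 3.22 and 3.74 in the Notch3 KO libraries against 3.17 to 5.78 in WT T-ALL. Thymus, which is wild type for it, lay between 2.62 and 4.29, so the Notch3 KO values overlapped those of thymus. Reads of later exons and of host cells can contribute to it, so it does not settle the labels.

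Most of the 8 genes were lower in both T-ALL groups than in thymus. Cd79a, Cd79b, Ms4a1, Pax5 and Ebf1 did not overlap: every one of the 17 T-ALL libraries lay below every thymus library. Such a pattern was found in 4.68% of genes for WT T-ALL and in 13.8% for Notch3 KO T-ALL, among genes above 0 in any library compared. Cd22 was lower on average but overlapped. Blnk and Vpreb3 showed no difference past the test in either comparison, except that under quantile normalization Blnk was lower in WT T-ALL by a difference of -0.33 (exact permutation test, p = 0.0164). The median difference from thymus over the 8 genes was -0.42 in WT T-ALL and -0.46 in Notch3 KO T-ALL, beside medians of 0.0125 and 0.0093 over the 19183 genes above 0 in any library. It depended on the offset of 1 added before the log: with offsets of 0.1 and 0.01 it was -1.76 and -3.38 in WT T-ALL. In bulk samples fewer cells of a type and less RNA per cell cannot be told apart.

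**Figure D1:**
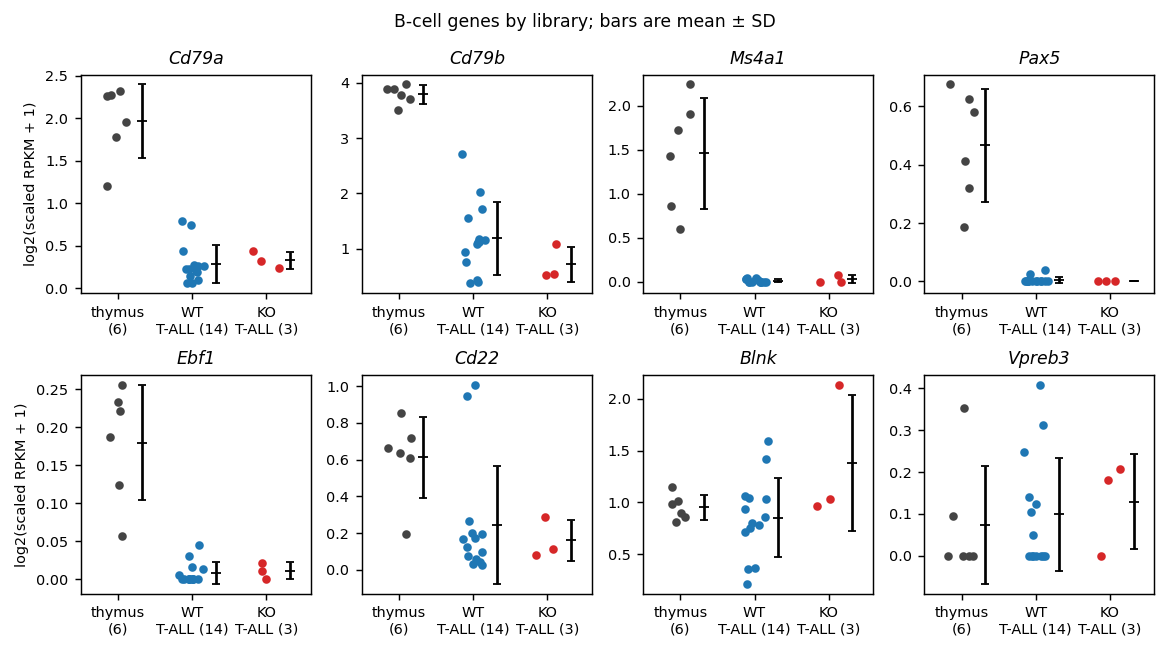
Each panel plots 1 gene, with log2(scaled RPKM + 1) on the vertical axis and the 3 groups on the horizontal axis; points are libraries and bars are mean ± SD. Cd79a, Cd79b, Ms4a1, Pax5 and Ebf1 have no overlap between thymus and T-ALL. Blnk and Vpreb3 overlap between groups, with some T-ALL libraries outside the thymus range.

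Only 4 of the 8 genes (Cd79a, Cd79b, Ms4a1 and Blnk) reached a scaled RPKM of 1 in at least 3 libraries and entered the limma fit. Cd79a and Ms4a1 did so through thymus alone, so their calls were favored by the filter. In WT T-ALL 3 of the 4 were called lower and 0 higher (Benjamini-Hochberg adjusted p under 0.05), against 22.3% of all genes tested called lower and 29.3% higher. In Notch3 KO T-ALL the counts were also 3 and 0, against 16.3% lower and 21.2% higher. The gene not called, Blnk, also missed an unadjusted p of 0.05 in both. With the erythroid markers as a covariate, 0 of the 4 were called in Notch3 KO T-ALL, in a fit that called 27 of the 11919 genes lower. The differences of Cd79a, Cd79b and Ms4a1 were then -1.18, -2.62 and -1.51, with unadjusted limma p of 0.0439, 0.00984 and 0.0191. In WT T-ALL 3 of the 4 stayed called lower with this covariate, beside 282 of the 11919 genes. The summed erythroid markers did not overlap between thymus (0.248 to 2.43) and T-ALL (35.0 to 658 in WT, 344 to 1822 in Notch3 KO). The covariate thus largely follows the groups, and this fit cannot part the 2. Without the filter, 6 of the 8 were called lower in WT T-ALL (15.6% of all genes) and 5 in Notch3 KO T-ALL (11.0%). Adding the erythroid covariate to this unfiltered fit left 4 in WT T-ALL (337 of 19183 genes lower) and 0 in Notch3 KO T-ALL (48 of 19183). Cd79b (limma adjusted p = 0.0616) and Cd22 (0.230) were those lost in WT T-ALL.

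Cd79b was the most abundant of the 8 in thymus, at 3.51 to 3.97, and Cd79a followed at 1.20 to 2.32. As scaled RPKM, a scale per length, this is 12.9 ± 1.53 and 3.05 ± 1.06 (SD, n = 6). Cd79a fell to 0.06 to 0.79 (median 0.23) in WT T-ALL and measured 0.44, 0.24 and 0.32 in Notch3 KO T-ALL 1, 2 and 3. Mean scaled RPKM was 13.0-fold higher in thymus than in WT T-ALL and 11.7-fold higher than in Notch3 KO T-ALL. The limma difference was -1.68 (SE 0.15, adjusted p = 1.09e-08) and -1.63 (SE 0.22, adjusted p = 8.17e-06). Cd79a was nonetheless above 0 in all 17 T-ALL libraries, from an estimated 1 to 16 reads, against 23 to 152 in thymus. WT T-ALL 7 and 3 were the highest, at 0.79 and 0.75, still under the lowest thymus library. Within set A, which holds thymus 5 and 6, the difference of WT T-ALL from thymus was -0.93 (4 against 2 libraries), and within set B it was -2.03 (10 against 4).

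Cd79b was lower as well, by a smaller fold than Cd79a in WT T-ALL and by a larger one in Notch3 KO T-ALL, a contrast between the genes that was not tested. In WT T-ALL it ran from 0.38 to 2.71 with a median of 1.12. Notch3 KO T-ALL 1, 2 and 3 measured 1.08, 0.52 and 0.55. WT T-ALL 5 was the highest at 2.71, followed by 110 at 2.03, 126 at 1.72 and 108 at 1.56. In scaled RPKM WT T-ALL 5 reached 5.54, while the lowest thymus library had 10.4. Reads were estimated at 4 to 99 in WT T-ALL, with 556 over the group against 83 of Cd79a, but WT T-ALL 4 and 7 held 6 and 4 against 8 and 10 of Cd79a. The difference from thymus was -2.60 in WT T-ALL (SE 0.26, limma adjusted p = 3.62e-08) and -3.07 in Notch3 KO T-ALL (SE 0.37, limma adjusted p = 1.94e-06), with means 8.41-fold and 19.1-fold lower as scaled RPKM. The signaling pair was not held in 1 ratio across tumors: WT T-ALL 5, first for Cd79b, had 0.27 for Cd79a, and WT T-ALL 7, first for Cd79a, had 0.40 for Cd79b.

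Ms4a1 (CD20) was close to 0 in T-ALL. Thymus libraries 1 to 6 gave 2.24, 1.43, 1.91, 1.72, 0.59 and 0.86. In WT T-ALL it was listed at 0 in 8 of 14 libraries and reached at most 0.05. Notch3 KO T-ALL 1 gave 0.08 and the other two were at 0. These levels stand for 7 reads over the 14 WT T-ALL libraries and 3 reads over the Notch3 KO libraries, all in library 1, against 638 reads over the 6 thymus libraries. Per unit of depth, thymus had 221 times the reads of WT T-ALL (95% exact interval 107 to 553) and 110 times those of Notch3 KO T-ALL (37.5 to 535). For a library at 0, the limit that a count of 0 allows (3 reads) was a scaled RPKM of 0.0308 to 0.140. The limma difference was -1.45 (SE 0.16, adjusted p = 2.59e-07) and -1.43 (SE 0.24, adjusted p = 7.76e-05). With set A alone the difference in WT T-ALL was -0.73, and with set B alone -1.81. The Notch3 KO libraries are all in set A, where their difference was -0.70 for Ms4a1 and -1.16 for Cd79a (3 against 2 libraries, where 0.1 is the smallest exact permutation p). Thymus 5 and 6 held only 14 and 28 of the 638 thymus reads of Ms4a1, so the ratios above rest mostly on thymus of set B.

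Both lineage factors followed the same pattern at lower levels. Pax5 measured 0.41, 0.19, 0.58, 0.63, 0.32 and 0.68 in thymus 1 to 6. It was listed at 0 in 12 of 14 WT T-ALL libraries and in all 3 Notch3 KO libraries, and the 2 exceptions, WT T-ALL 14 and 48, had 1 estimated read each. Thymus had 66 reads in all. The ratio of thymus to WT T-ALL per unit of depth was 80.2 (95% exact interval 21.3 to 676). With 0 reads in Notch3 KO T-ALL, the lower bound of the 95% exact interval of thymus over that group was 9.01. Two-sided exact permutation tests gave p = 2.58e-05 for WT T-ALL, the smallest that 14 against 6 libraries allow, and p = 0.0238 for Notch3 KO T-ALL, where 0.0119 is the smallest.

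Ebf1, which acts before Pax5, measured 0.22, 0.06, 0.26, 0.23, 0.12 and 0.19 in thymus 1 to 6. It was at 0 in 9 of 14 WT T-ALL libraries, and its highest T-ALL value was 0.04, in WT T-ALL 14. Thymus libraries held 5 to 26 estimated reads and WT T-ALL libraries 0 to 5, with 10 over the group. Thymus exceeded WT T-ALL 23.8-fold per unit of depth (95% exact interval 12.4 to 51.2) and Notch3 KO T-ALL, with 3 reads, 16.9-fold (5.62 to 83.4). Those 3 reads were 1, 2 and 0 in Notch3 KO T-ALL 1, 2 and 3. The exact permutation p was 2.58e-05 and 0.0238. The gap between groups was narrow in reads, since thymus 2 and WT T-ALL 14 both held 5, with 1 read worth 1.24 and 0.988 times its worth in thymus 1. WT T-ALL 14 also had 2 of the 7 reads of Ms4a1 and 1 of the 2 of Pax5. Without this library the ratio of thymus to WT T-ALL was 43.3 for Ebf1 (95% exact interval 17.9 to 136) and 146 for Pax5 (25.3 to 5845).

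**Figure D2:**
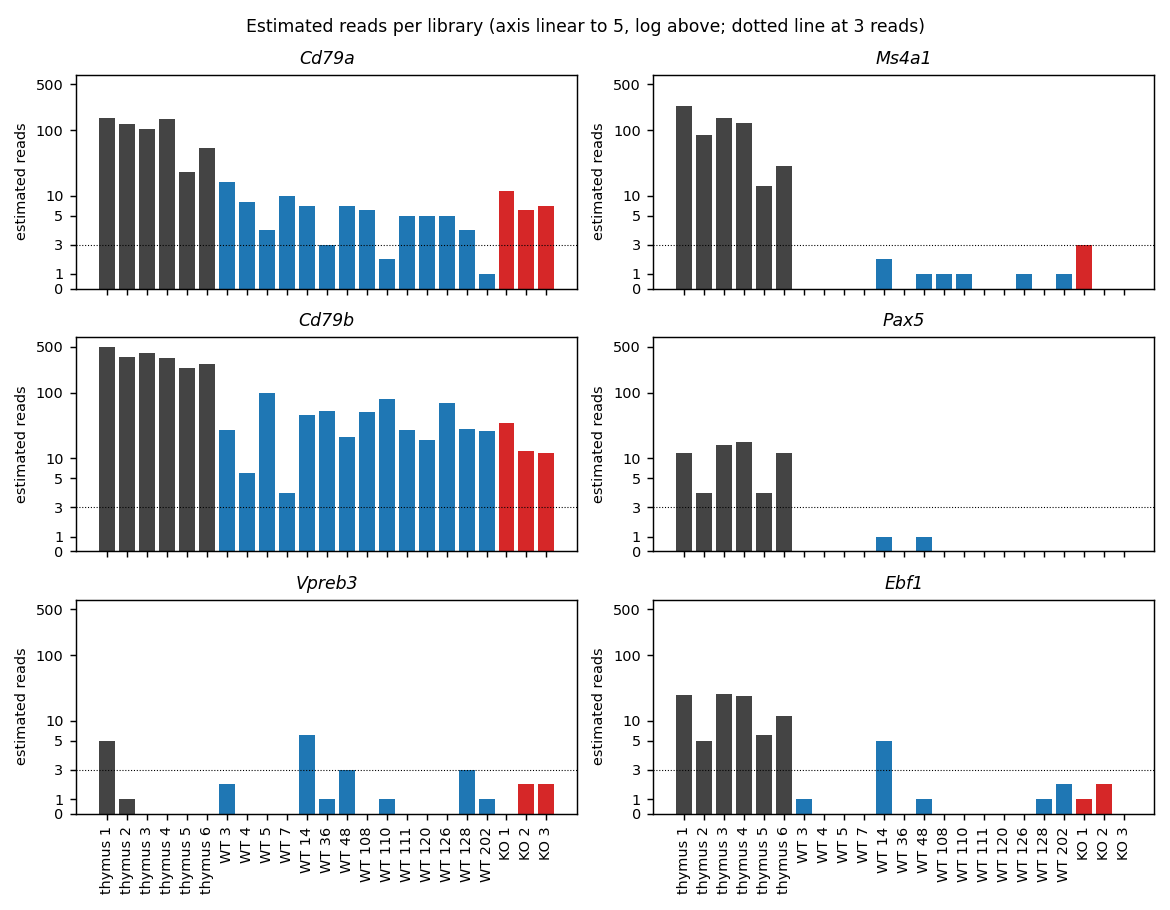
Bars give the estimated reads of 6 of the genes in each of the 23 libraries (gray thymus, blue WT T-ALL, red Notch3 KO T-ALL), on an axis linear up to 5 reads and logarithmic above. Ms4a1, Pax5 and Ebf1 stay at or below 5 reads in every T-ALL library, whereas Cd79b holds 4 to 99.

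Cd22 differed from this pattern tumor by tumor. Thymus 1 to 6 gave 0.66, 0.64, 0.61, 0.85, 0.20 and 0.72. In 12 of the WT T-ALL libraries it lay between 0.02 and 0.27, while WT T-ALL 108 and 110 reached 0.95 and 1.01, above all thymus libraries. Notch3 KO T-ALL 1, 2 and 3 measured 0.29, 0.11 and 0.08. On average WT T-ALL was lower by a difference of -0.37 (exact permutation test, p = 0.0174) and Notch3 KO T-ALL by -0.45 (p = 0.0238, exact permutation test). The second p was above 0.05 in 7 of 9 fits without 1 library (exact, up to 0.0893), within set A (exact p = 0.3) and with the split as a term (limma unadjusted p = 0.150), and the unfiltered limma adjusted p was 0.0890 (0.0377 with a replicate block). Within set B the WT T-ALL difference was -0.39 with an exact p of 0.0709.

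The libraries 108 and 110 stood out in host cell markers as well. Their summed scaled RPKM over the 8 macrophage markers was 377 and 315, against a median of 117 over WT T-ALL, and over the 7 neutrophil markers 17413 and 84321, against a median of 2180. Both were also the highest for Siglecg, a relative of Cd22 (0.99 and 2.20, at most 0.45 in the other 12), and for Cd180, a surface receptor of B and myeloid cells (1.72 in each). These 2 genes were singled out after their values were seen. Pax5 and Ms4a1 did not stand out there: Pax5 was 0 in both, and Ms4a1 had 1 read in each. WT T-ALL 202 had macrophage markers at 369 but Cd22 at only 0.20. The part of these host cells in the Cd22 values was not tested.

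Blnk, the adaptor below the receptor, did not separate the groups. Thymus lay between 0.81 and 1.15, WT T-ALL between 0.22 and 1.59 with a median of 0.83, and Notch3 KO T-ALL 1, 2 and 3 measured 1.04, 2.14 and 0.97. The difference from thymus was -0.10 in WT T-ALL (SE 0.19, limma adjusted p = 0.676) and 0.43 in Notch3 KO T-ALL (SE 0.27, limma adjusted p = 0.227), where it turned to -0.15 with the erythroid covariate. Leaving out single libraries, the Notch3 KO difference ran from 0.048 to 0.63, lowest without Notch3 KO T-ALL 2. Blnk rested on at least 10 estimated reads in every library. Of the WT T-ALL libraries, 7 were below all thymus libraries and 2 above.

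Within WT T-ALL, Blnk varied with the macrophage markers. Over the 14 libraries Pearson's r was 0.755 (permutation p = 0.00185, adjusted over 12 pairs 0.0222) and Spearman's rho 0.749 (adjusted permutation p = 0.0316). Without the 2 libraries farthest from the median of the markers, WT T-ALL 4 and 36, r was 0.569, and within the 10 libraries of set B it was 0.772. Set A holds 4 WT T-ALL libraries, too few for a value. Blnk is also made by macrophages, so the cells that its reads came from cannot be told apart here. The 11 other pairs, of Blnk or Cd79b with macrophage, neutrophil, erythroid, plasmacytoid dendritic cell, stroma and fat, or T cell markers, had adjusted permutation p-values from 0.136 to 0.900. Among them, Cd79b with neutrophil markers had an r of 0.370 over the 14 libraries, 0.850 within the 10 of set B and 0.0358 without WT T-ALL 108 and 110, the 2 farthest from the median of the markers. The 2 genes were tested because only they reached a scaled RPKM of 1 in at least 3 WT T-ALL libraries.

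**Figure D3:**
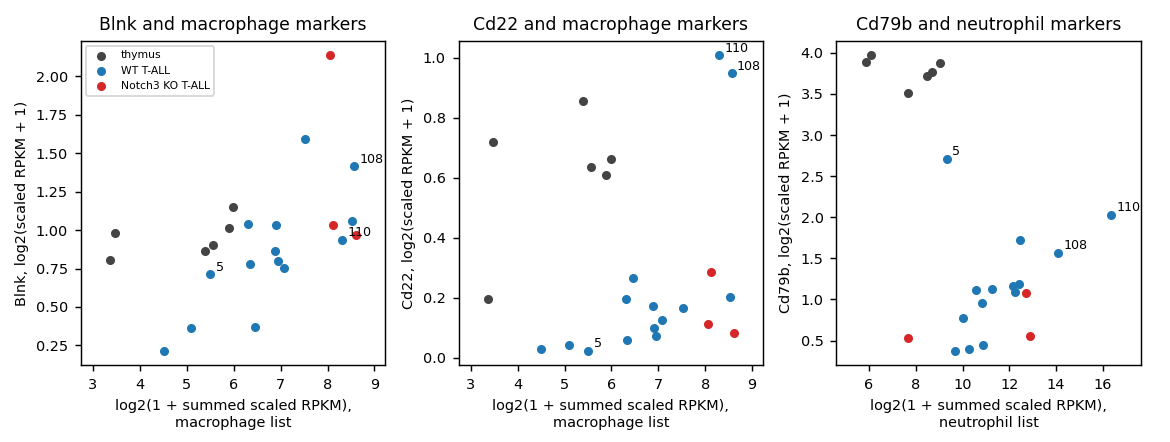
Points are libraries, with a gene as log2(scaled RPKM + 1) on the vertical axis and the log2 of 1 plus the summed scaled RPKM of a marker list on the horizontal axis; numbers name WT T-ALL libraries 5, 108 and 110. Blnk rises with macrophage markers among WT T-ALL (r = 0.755), while Cd22 is high in 108 and 110 only, among the WT T-ALL libraries.

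Vpreb3 was at the edge of detection everywhere. It was above 0 in 2 of 6 thymus, 7 of 14 WT T-ALL and 2 of 3 Notch3 KO libraries. Thymus held 6 estimated reads, 5 of them in thymus 1, and WT T-ALL held 17, with at most 6 in WT T-ALL 14. The exact permutation p was 0.714 and 0.524. Per unit of depth, the ratio of thymus reads to those of WT T-ALL was 0.857 (95% exact interval 0.277 to 2.28), and to those of Notch3 KO T-ALL 0.777 (0.184 to 3.74), so smaller differences were not detectable at this depth. For a library at 0, the 3-read limit was a scaled RPKM of 0.181 to 0.480.

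The 2 T-ALL groups were also set against each other, to ask about the Notch3 genotype of the donor. The strain of the Notch3 KO donors is not given in the sources used here. The split into sets cannot be fully separated from it, since all 3 Notch3 KO libraries are in set A and 10 of the 14 WT T-ALL libraries in set B. By limma, 0 of the 2 genes tested (Cd79b and Blnk) were called, also at an unadjusted p under 0.05, against 0.0257% of 11677 genes called lower and 0.591% higher. By exact permutation test none of the 8 had a p under 0.05. The nearest was Blnk, with a difference of 0.53 and an exact p of 0.0735. It rested on Notch3 KO T-ALL 2, without which the difference was 0.15. Cd79b differed by -0.47 (SE 0.38) with an exact permutation p of 0.251.

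Other genes of the lineage were measured from lists. Of 21 further mature B-cell genes 15 were listed in the table, and Ighm, Ighd, Igkc, Iglc1, Iglc2 and Iglc3 were not. The fit tested 10 of them, of which 5 were lower in WT T-ALL (22.3% of all genes tested), 4 in Notch3 KO T-ALL (16.3%) and 0 higher in either (29.3% and 21.2%). Of the 10, 4 reached the filter through thymus (fewer than 3 T-ALL libraries at a scaled RPKM of 1), among them Cd72, Spib and Fcrla. These 4 were all lower in WT T-ALL and 3 of them in Notch3 KO T-ALL, so the filter favored these counts. The median of those tested was -0.32 and -0.48. Cd72, a coreceptor, differed by -1.24 and -1.14. Spib, a transcription factor shared with plasmacytoid dendritic cells, differed by -0.85 and -0.95, and Tnfrsf13b, a receptor for survival factors, by -0.84 and -0.67. In 4 of the 15, among them Fcer2a, Cr2 and Fcmr, all T-ALL libraries lay below thymus (4.68% of all genes for WT T-ALL alone), and in 7 those of Notch3 KO T-ALL did (13.8%). Fcer2a, which encodes the IgE receptor CD23, was listed at 0 in all 17 T-ALL libraries and at 0.56 to 0.82 in thymus.

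**Figure D4:**
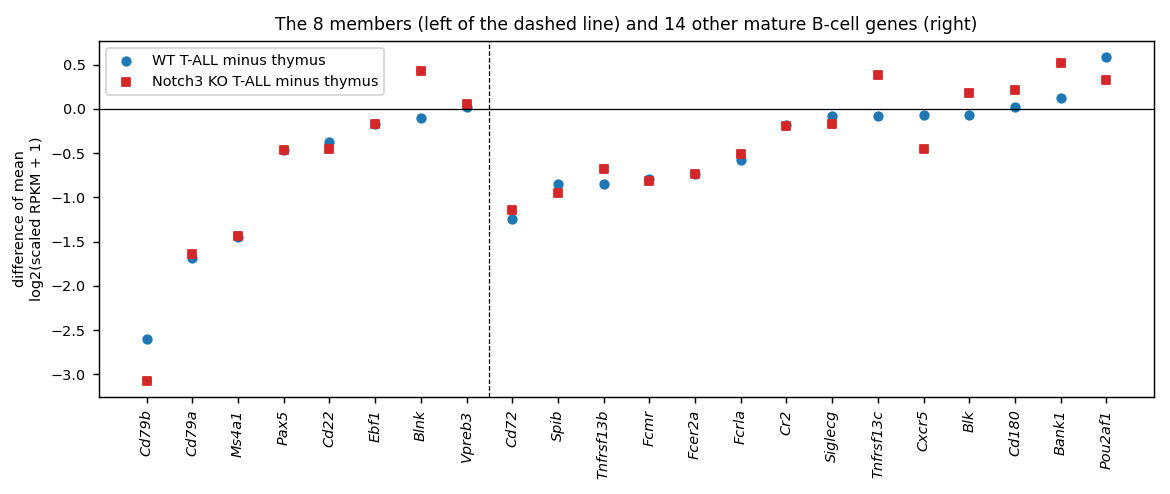
Points give the difference in mean log2(scaled RPKM + 1) from thymus for WT T-ALL (circles) and Notch3 KO T-ALL (squares), for the 8 genes and for 14 of the 15 further mature B-cell genes measured, each set ordered by WT T-ALL. Cd79b lies lowest at -2.60 and -3.07, and Blnk and Vpreb3 lie near 0 in WT T-ALL.

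Of the 8 genes of precursor B cells, 6 were tested, of which 4 were lower and 1 higher in WT T-ALL, and 5 and 0 in Notch3 KO T-ALL, beside the same shares of all genes (22.3% lower and 29.3% higher, 16.3% and 21.2%). The surrogate light chain gene Vpreb1 differed by -0.78 in WT T-ALL (SE 0.13), and it too was among the genes tested only through thymus. The recombinase genes Rag1 (-3.63 and -4.37) and Rag2 (-2.48 and -3.53) and the polymerase gene Dntt (-1.66 and -1.91) were lower too, and normal thymocytes express these 3 genes. Bst1 was higher in WT T-ALL by 2.83. Vpreb2 was listed at 0 in every T-ALL library and in 3 of 6 thymus libraries, and Igll1 in the Notch3 KO libraries and 1 of 6 thymus libraries. Of 8 plasma cell genes, 5 were tested: Jchain (-1.86, tested only through thymus), Mzb1 (-1.86) and Xbp1 (-1.12) were lower in WT T-ALL, whereas Sdc1, which encodes the surface proteoglycan CD138, was higher by 4.43 (SE 0.27, limma adjusted p = 1.08e-11) and 4.44 (SE 0.39, limma adjusted p = 2.62e-08).

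Among 12 signaling genes that B cells share with other leukocytes, 5 were lower and 2 higher in each T-ALL group. Of all genes tested, 22.3% and 16.3% were called lower and 29.3% and 21.2% higher. Inpp5d (-1.17 in WT T-ALL), Vav1 (-1.03 and -0.99) and Prkcb (-0.81 and -1.30) were lower. The kinases Lyn (1.34 and 1.88) and Btk (1.28 and 1.73), also used by myeloid cells, were higher. Host cell markers moved with the groups, beside 29.3% of all genes higher and 22.3% lower in WT T-ALL: 7 of 8 macrophage, 7 of 7 neutrophil and 6 of 6 erythroid markers were higher in WT T-ALL, with summed scaled RPKM of 21.7 to 377, 636 to 84321 and 35.0 to 658, against 9.33 to 62.2, 57.1 to 530 and 0.248 to 2.43 in thymus. In Notch3 KO T-ALL the sums were 266 to 388, 202 to 7564 and 344 to 1822. The sums of the 8 plasmacytoid dendritic cell markers overlapped (316 to 552 in thymus, 59.0 to 1103 in WT T-ALL), with Ly6d the most abundant (on the log2 scale a median of 8.48 in thymus, and 1.82 to 10.05 in WT T-ALL). Of the 7 tested, 1 was lower in each T-ALL group, Pacsin1 (-2.90 and -2.72), which also reached the filter only through thymus, and 1 higher in WT T-ALL and 2 in Notch3 KO T-ALL, among them Irf8 (0.92 and 1.26). Of the stroma and fat list 3 of 4 genes tested were higher in WT T-ALL (29.3% of all genes). Ebf2 and Plin1 were listed at 0 in Notch3 KO T-ALL, as they were in 4 and all 6 of the thymus libraries. Of 3 NK cell genes tested Gzma was higher by 3.62 and Klrb1c (tested only through thymus) and Prf1 differed by -0.87 and -0.82. Of 10 T cell genes 5 were lower in WT T-ALL, led by Cd4 (-4.30) and Cd8a (-2.67), beside 22.3% of all genes. The part of these cells in the B-lineage values was not tested.

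The genes most like each of the members were found by Pearson's r over libraries, which for all 23 mainly follows the gap between thymus and T-ALL. Cd79a was most like Vipr1 (0.97), with Sytl2 (0.95) and Klhl4 (0.95) among its 5 nearest. Cd79b was most like Pcbp3 (0.95), Dnajc6, Crmp1, Armcx1 and Sytl2 (all 0.92 to 0.93), and Ms4a1 most like St8sia6 (0.99), Apol9b, Gm1966, Klhl4 and Gm5111 (all 0.97). Blnk had no gene above 0.73, with Bend4, Rims3, Cxcl12, Abat and Eepd1 the nearest. Over the 14 WT T-ALL libraries alone, Cd79b was most like Syce1 (0.89), Il1r1, Rab7, Gm5801 and Ppapdc1b, and Blnk most like Pld4 (0.84), Gsto1, Abca1, Abcc3 and Itgb5.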

How the data were processed

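The deposited values are log2(RPKM + 1), which the authors made with the OSA aligner of ArrayStudio and the transcripts of build mm10, per the study's methods and the labels. That RPKM was scaled to a 75th percentile of 10 was read from the values. The 27 symbols that had turned into dates were restored by gene identifier. Members and lists were chosen with earlier results of these data known. The filter kept genes that reached a scaled RPKM of 1 in 3 or more fitted libraries. Fits used limma 3.58.1 under R 4.3.3 (lmFit; eBayes with trend and robust), on all 3 groups for thymus comparisons and on the T-ALL groups alone otherwise. Single genes had two-sided exact permutation tests, unadjusted (Python 3.11.15, scipy 1.17.1). All 8 genes are named, with called list genes (at most 4 per direction) and markers at 0; a few genes that this rule names are not reported here. The study's legends give a separate mouse for each expression value plotted, so libraries were taken as separate animals.

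Reads were estimated from the commonest ratio of low values between libraries, anchored to GENCODE M21 lengths of single-transcript genes (535 of 764 within the peak). A value counted as whole within 0.2 of a read, and at least 80% of values up to 40 reads had to be whole. The scripts were tested on simulated data. Alternatives covered the log2 offset, filter, scaling, fitted samples, variance model, an erythroid covariate, the replicate block, single libraries left out and, chosen after seeing the data, the split into sets A and B and libraries that stood apart.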

Additional observations from a re-analysis of the deposited data

Results flagged for a closer look

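In thymus, where each of the 8 genes was checked for a library far from the other 5, 2 flags arose. For normally distributed values, chance flags about 1 in 20 such groups. Cd22 in thymus 5 was 0.20, below the other thymus libraries at 0.61 to 0.85, with a gap of 0.626 of the range where the critical value is 0.625. Vpreb3 in thymus 1 was 0.35, from 5 estimated reads, above the other thymus libraries at 0 to 0.10. It was at 0 in 4 of the 6 thymus libraries, so that rate does not hold for its flag.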

How the results depend on the processing

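For Cd79a, Cd79b, Ms4a1, Pax5 and Ebf1, all 155 recomputed differences of WT T-ALL and all 90 of Notch3 KO T-ALL from thymus kept their sign, and 5 and 7 missed an unadjusted p of 0.05, in set A or without thymus 5 and 6, where the smallest exact p is 0.0667 (4 against 2), 0.1 (3 against 2) or 0.0286 (3 against 4). The count of genes called lower in WT T-ALL was 6 of 8 tested without a filter, 1 of 1 with a filter of 5 (2254 of 9515 genes lower) and 1 of 2 within set A (716 of 11234); in Notch3 KO T-ALL it was 5 of 8, 1 of 1 (1671 of 9515) and 1 of 2 (1106 of 11234), and 0 of 4 with the erythroid covariate, a fit that called 27 of 11919 genes lower. In WT T-ALL the erythroid covariate left the count at 3 of 4 (282 of 11919 genes lower). Leaving out single libraries left it at 3 in both groups. Thymus and WT T-ALL share the numbers 3, 4 and 5, and thymus and Notch3 KO T-ALL share 1, 2 and 3. Deviations of same-numbered libraries correlated by -0.235 to 0.131 and -0.028 to 0.151. With 3 shared numbers each and no differently numbered pairs beside them, this does not settle whether the numbers pair libraries. With a replicate block 2 of 2 and 3 of 4 genes tested were called lower (846 of 10546 and 1655 of 10828 genes). Without a filter the block left 0 of 8 called by limma in WT T-ALL (3 libraries against 3; 34 of 17003 genes called lower), with 6 at an unadjusted p under 0.05, and 5 of 8 in Notch3 KO T-ALL (1199 of 17819), where Ebf1 was lost (limma adjusted p = 0.0886) and Cd22 gained (0.0377). By quantile normalization Blnk in WT T-ALL was -0.33 (exact permutation p = 0.0164).

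The median difference in WT T-ALL was -1.76 and -3.38 with offsets of 0.1 and 0.01, -0.59 by quantile normalization, -0.57 at equal sums and -0.63 with the erythroid covariate. In Notch3 KO T-ALL these were -1.86, -3.21, -0.63, -0.62 and -0.78, with -0.40 within set A, -0.39 with the split as a term, and -0.52 to -0.42 leaving out single libraries. Between the T-ALL groups it was 0.0636 and 0.244 with the offsets. Equal sums moved the median of all genes by -0.437 and -0.567 against thymus.

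The sign changes were as follows, and their cause was not tested. Vpreb3 in WT T-ALL became -0.0181 (quantile), -0.00744 (equal sums), -0.0127 (without thymus 5 and 6) and -0.0513 (erythroid covariate). In Notch3 KO T-ALL it became -0.00978 (quantile), -0.0576 (erythroid covariate) and -0.0195 (replicate block), and Blnk went from 0.43 to -0.15 (erythroid covariate). Between the T-ALL groups Cd79a became -0.0212 (quantile) and -0.23 (set A, and the split as a term, where its limma unadjusted p was 0.0460), Ebf1 -0.00017 (quantile) and -0.00039 (erythroid covariate), Vpreb3 -0.0075 (erythroid covariate), and Cd22 0.0700 (set A, and the split as a term) and 0.0389 (without WT T-ALL 108 and 110). Leaving out single libraries, Cd79a ran from -0.00593 to 0.0924, Ms4a1 from -0.0134 to 0.0267, Ebf1 from -0.0023 to 0.0086 and Vpreb3 from -0.0082 to 0.0954, and Blnk had an exact p of 0.0482 without WT T-ALL 108 and 0.0411 without WT T-ALL 128. Cd79b with erythroid markers was 0.24 by Spearman's rho and 0.25 without the 2 farthest libraries, Cd79b with T cell markers 0.12 without them, and Blnk with stroma and fat markers -0.0813 and -0.26.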

Other observations

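Blk, the B-lymphoid kinase of the mature B-cell list, did not differ between groups on average but was uneven among tumors. It was 1.13 to 1.74 in thymus. In WT T-ALL 4, 7, 14 and 202 it was 3.30, 3.56, 3.92 and 3.24, and the other 10 WT T-ALL libraries lay between 0 and 1.51. Notch3 KO T-ALL 1, 2 and 3 gave 0.07, 1.92 and 2.77. Fcrla, an intracellular Fc receptor-like protein of B cells, was 1.17 in WT T-ALL 5 and 1.45 in WT T-ALL 126, above all thymus libraries (0.45 to 1.12), and at most 0.21 in the other 12. These genes were picked out after their values were seen.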
